A study of Mus musculus with 12 samples.

Results

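The genes described here encode receptors for haematopoietic growth factors: the receptors for interleukin-3 (Il3ra, Csf2rb and Csf2rb2), GM-CSF (Csf2ra, which shares Csf2rb), M-CSF (Csf1r), G-CSF (Csf3r) and interleukin-6 (Il6ra and Il6st), and the receptor tyrosine kinases Kit and Flt3. They were chosen by name, and every probe set of the array that the platform annotation assigned to one of them alone was used. Of the 10 genes, 9 had such a probe set, 14 in all among 28898 probe sets with a single gene. The expression of Csf2ra was not analysed here, and only its promoter window was searched. Probe sets that exceeded the median of their array on at least 4 of the 12 arrays were tested, which took in 12 of the 14 and left out 2 dim probe sets of Il6st.

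Total RNA was measured on 12 oligonucleotide arrays, 4 for each of 3 lines of murine acute myeloid leukaemia cells. By their labels, TB13 and TB14 expressed Bcl11a as well as Trib1, and the line named Trib1, against which they are set, expressed Trib1 without Bcl11a. Trib1 is a pseudokinase known to drive degradation of C/EBPalpha, and Bcl11a is a zinc finger repressor. All 3 lines were therefore labelled for Trib1, and all were cultured without treatment in IMDM medium that held interleukin-3 at 5 ng/ml and fetal bovine serum at 10%. Each condition is represented by 1 line, or by 2 for Bcl11a, and the labels do not say how the genes were introduced or that the 4 arrays of a line came from separate cultures, so p-values rest on array-to-array spread alone and that spread may be technical. The title of the series concerns Bcl11a in leukaemia and the activity of the transcription factor PU.1.

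Interleukin-3, GM-CSF and interleukin-5 bind receptors made of a ligand-specific alpha chain and a beta chain that carries the signal through JAK2. In the mouse, Csf2rb is the common beta chain of all these receptors, and Csf2rb2 is a close paralogue used for interleukin-3. M-CSF, Kit ligand and Flt3 ligand act through receptors with their own kinase domain, of which Csf1r marks monocytes and macrophages, Kit marks progenitors and mast cells, and Flt3 marks multipotent progenitors and dendritic cells. Csf3r drives granulocyte formation, and interleukin-6 binds Il6ra, which recruits the shared signalling chain Il6st (gp130). Csf1r, Csf2ra and Csf3r are known targets of PU.1 and C/EBPalpha in myeloid cells.

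Values are linear intensities as deposited. They carry no read depth, so the number of arrays limits the precision. The arrays of the TB13 line differed from the other 8 also in hybridization controls, transcripts of foreign origin that the platform's protocol adds to every sample. The controls that read under 200 units in Trib1, 7 in number, had log2 changes of -1.38 to -0.80 in TB13 and -0.028 to 0.077 in TB14. The 7 controls over 1000 units had changes of -0.51 to 0.029 in TB13 and -0.074 to 0.0018 in TB14. The changes of the receptor genes in TB13 are therefore also given after quantile scaling, which gives all arrays the same distribution of values. For Il3ra, the brighter Csf2rb probe sets, Csf1r, Kit and Csf3r they are also set beside the controls nearest in intensity. Means of all genes are as deposited. The median change of all tested probe sets in TB13 was -0.39 as deposited, -0.030 after quantile scaling and 0.56 after calibration on the controls, and in TB14 it was 0.0084, 0.0053 and -0.025. Array medians, unlike the dim controls, were higher in TB13, at 25.5 to 25.9 against 21.1 to 21.4 in Trib1. Upper quartiles were lower, at 71.8 to 72.5 against 102 to 106. Without the filter 12230 of 28898 probe sets passed as higher in TB13, against 4542 of 17475 with it, so many dim probe sets read higher there. The 4 probe sets of Bcl11a read 6.70 to 21.5 and the 2 of Trib1 14.4 to 40.1 on all arrays. Whether they detect the introduced sequences is not known here, and they did not check the labels. All 8 general myeloid markers were above the array median on every array of every line, while Col1a1, Col1a2 and Cdh5 of stromal and endothelial cells averaged at most 14.5 in any line. Of the other genes of that list Pdgfra averaged 17.5 to 23.6, and Pecam1, which leukocytes also express, averaged 285.5 in TB13, 579 in TB14 and 771 in Trib1.

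The interleukin-3 receptor was the one whose ligand was in the medium. Its alpha chain was lower in both Bcl11a lines, and its beta chains stayed bright in all 3 lines. Il3ra, the subunit that binds interleukin-3, read 46.3, 40.2, 40.8 and 40.7 in TB13, 56.0, 57.3, 56.5 and 58.1 in TB14, and 117.6, 120.3, 124 and 115 in Trib1. The 3 lines did not overlap, with TB13 lowest and Trib1 highest. In TB14 the log2 change against Trib1 was -0.92 ± 0.051 (SE, n = 4 arrays a line; limma with Benjamini-Hochberg adjustment, adjusted p = 1.03e-11), where the hybridization controls nearest in intensity changed by -0.028 to 0.046. Il3ra thus fell to 57.0 ± 0.903 in TB14, against 119.4 ± 3.86 in Trib1 (SD), a ratio of 0.477. In TB13 the change was -1.27 ± 0.051 as deposited (adjusted p = 1.34e-14) and -1.16 after quantile scaling. The 4 controls of like intensity, at 98.1 to 139 units in Trib1, changed by -1.38 to -1.21 in TB13, a range that holds the value of Il3ra. After calibration on the controls the TB13 change was -0.091 and did not pass (adjusted p = 0.239). In RNA of whole cultures, fewer cells with a transcript and less transcript per cell cannot be told apart.

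The sequence around the start of Il3ra is shown because Il3ra fell in TB14. The window runs from 250 bases before to 50 after the start at chr14:14346245-14346544 (+ strand, GRCm38.p6, from RefSeq), and capitals mark GGAAGT, the core of sites bound by PU.1 and other ETS factors.
Il3ra: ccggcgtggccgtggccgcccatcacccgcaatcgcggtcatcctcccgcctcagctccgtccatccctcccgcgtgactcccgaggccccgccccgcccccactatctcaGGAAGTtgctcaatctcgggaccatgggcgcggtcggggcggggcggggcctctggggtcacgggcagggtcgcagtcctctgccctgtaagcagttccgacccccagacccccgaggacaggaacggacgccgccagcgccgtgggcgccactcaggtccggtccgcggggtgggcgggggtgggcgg
GGAAGT occurred once in this window, beginning at base 112 counted from the 5′ end, and the same letters, on either strand, were found in 23.8% of 32851 promoter windows of this length. GAGGAA, the core of the purine-rich box of PU.1 sites, was not in this window. A match of letters is a description and shows no binding.

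Csf2rb, the common beta chain, was measured by 3 probe sets that did not move alike. The brightest read 1652, 1563, 1586 and 1576 in TB13, 2256, 2193, 2210 and 2209 in TB14, and 2254, 2221, 2227 and 2134 in Trib1. TB14 and Trib1 overlapped, and TB13 lay below both. Its change in TB14 was 0.0053 ± 0.021 (adjusted p = 0.864). In TB13 it was -0.47 ± 0.021 as deposited (adjusted p = 4.95e-14) and -0.27 after quantile scaling, while controls at 1688 to 3641 units in Trib1 changed by -0.45 to 0.029. The second Csf2rb probe set averaged 512 ± 61.7 in TB13, 999.9 ± 21.2 in TB14 and 926 ± 14.6 in Trib1, with changes of -0.85 in TB13 and 0.11 in TB14, and the TB14 change did not pass (adjusted p = 0.106). Its TB13 change was -0.29 after quantile scaling, and the controls nearest in intensity changed by -0.78 to -0.34 in TB13. The dimmest, whose name ends in s_at, a suffix the array maker gives to probe sets that can match more than one transcript, averaged 190.2 ± 7.46 in TB13, 415 ± 37.7 in TB14 and 305 ± 7.59 in Trib1. It rose in TB14 by 0.42 ± 0.052 (adjusted p = 1.02e-06). The TB13 change was -0.65 with deposited values but 0.12 with quantile scaling (adjusted p = 0.0443), so its direction there rested on the scaling. Csf2rb and Csf2rb2 are near copies, and signal of one on the probes of the other cannot be told apart here.

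Csf2rb2, the beta chain used for interleukin-3, changed little in either line. It read 1294, 1239, 1319 and 1145 in TB13, 1269, 1282, 1273 and 1292 in TB14, and 1329, 1319, 1367 and 1340 in Trib1. The TB14 values lay just below those of Trib1, and the highest TB13 value equalled the lowest of Trib1. The change in TB14 was -0.065 ± 0.032 and did not pass (adjusted p = 0.103), though after quantile scaling it was -0.078 and did (adjusted p = 0.0165). In TB13 it was -0.10 as deposited (adjusted p = 0.00617) but 0.20 after quantile scaling (adjusted p = 1.51e-06), a change of direction.

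**Figure D1:**
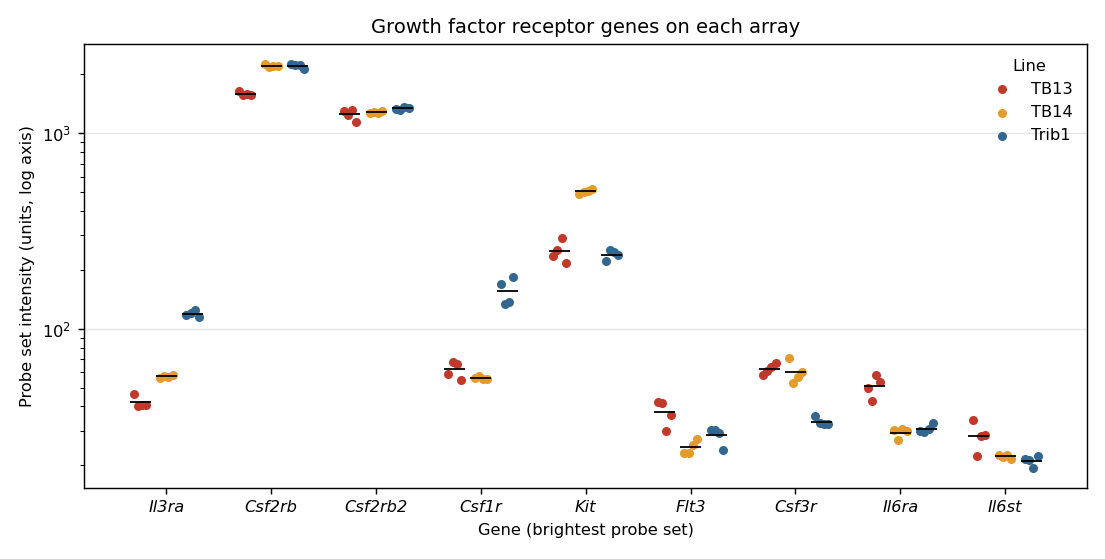
Intensity in units (log axis) of the brightest probe set of each of the 9 genes on the 4 arrays of TB13, TB14 and Trib1, with each point an array and each bar the mean of a line. Il3ra and Csf1r are lower in both Bcl11a lines than in Trib1, Kit is higher in TB14, and Csf3r is higher in both.

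Among the receptor tyrosine kinases, Csf1r was lower and Kit higher in TB14, and Flt3 was dim in every line. Csf1r, the M-CSF receptor, read 59.0, 67.2, 66.4 and 55.0 in TB13, 55.8, 57.6, 55.2 and 55.4 in TB14, and 169, 134, 137 and 184 in Trib1. Neither Bcl11a line overlapped with Trib1, whose own arrays spread from 134 to 184, more widely than those of TB14. The change in TB14 was -1.29 ± 0.081 (adjusted p = 7.84e-11), a ratio of 0.358, and controls of like intensity changed by -0.028 to 0.044. In TB13 the change was -1.17 ± 0.081 as deposited (adjusted p = 5.05e-11) and -0.77 after quantile scaling, beside controls that changed by -1.38 to -1.13. After calibration on the controls it was -0.033 and did not pass (adjusted p = 0.694).

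Other monocyte and macrophage markers moved with Csf1r. Of the 7 markers in that list 5 had a probe set, and the 3 above the array median on all arrays were Csf1r itself, Adgre1 and Ccr2. Adgre1, the F4/80 antigen, averaged 362 in TB13, 515 in TB14 and 735 in Trib1, and Ccr2, a chemokine receptor of monocytes, averaged 723 in TB13, 578 in TB14 and 1395 in Trib1. All 3 fell in both lines, where 20% of all probe sets fell in TB14 and 64.4% in TB13. Cx3cr1 and Mrc1 did not pass the filter and averaged higher in TB13 than in Trib1. Cx3cr1 averaged 29.1 in TB13, 18.6 in TB14 and 19.25 in Trib1, and Mrc1 13.5, 12.2 and 11.4 in the same lines. The summed level of the 5 genes was 1083 to 1285 on TB13 arrays, 1171 to 1189 on TB14 arrays and 2256 to 2423 on Trib1 arrays. The part of such cells in the change of Csf1r was not tested.

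Kit, the receptor for stem cell factor, read 236, 253, 291 and 216 in TB13, 486, 500, 508 and 521 in TB14, and 221, 252, 246 and 237 in Trib1. All TB14 values lay above all others, and TB13 overlapped with Trib1. Kit rose in TB14 by 1.04 ± 0.063 (adjusted p = 4.37e-11), to 504 ± 14.6 in TB14 against 239 ± 13.5 in Trib1, while controls of like intensity changed by -0.013 to 0.032. The TB13 change was 0.050 ± 0.063 as deposited and did not pass (adjusted p = 0.454). Controls at 199.6 to 382 units, the range around Kit, changed by -1.17 to -1.10 in TB13. Kit was 0.80 higher in TB13 after quantile scaling (adjusted p = 1.82e-09) and 0.99 after calibration on the controls, but -0.20 after median scaling (adjusted p = 0.00557), so neither its direction nor its call in TB13 held across scalings.

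The start of Kit is shown because Kit rose 2-fold or more in TB14, at chr5:75574737-75575036 (+ strand, GRCm38.p6, from RefSeq), with capitals on GAGGAA, the core of the purine-rich box of PU.1 sites.
Kit: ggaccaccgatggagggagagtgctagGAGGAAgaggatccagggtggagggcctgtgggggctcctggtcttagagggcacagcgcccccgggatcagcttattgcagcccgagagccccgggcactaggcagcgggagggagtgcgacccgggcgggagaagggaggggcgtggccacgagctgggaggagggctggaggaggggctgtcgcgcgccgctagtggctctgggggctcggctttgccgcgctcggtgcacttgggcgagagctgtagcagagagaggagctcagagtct
GAGGAA occurred once, beginning at base 28 of the window, and on either strand it was found in 28.3% of all promoter windows. It overlaps with GGAAGT where a window holds both as one run, which was not so here, since GGAAGT was not in this window.

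Markers of mast cells and of progenitors, the cells in which Kit is usually found, were also measured. Of 8 mast cell and basophil genes 7 were above the array median on all arrays of each line. The summed level of the 8 was 7669 to 7906 in TB13, 9679 to 9801 in TB14 and 9126 to 9225 in Trib1. Of the 7 tested, 4 rose, 2 fell and 1 did not pass in TB14, where 29.6% of all probe sets rose and 20% fell. In TB13 2 rose, 4 fell and 1 did not pass, both as deposited and after quantile scaling. Of all probe sets 26% rose and 64.4% fell in TB13 as deposited, and 37% and 43.1% after quantile scaling. Most of the sum came from Cpa3, a mast cell protease, which averaged 6153 in TB13, 6127 in TB14 and 5973 in Trib1. Ms4a2, a chain of the IgE receptor, averaged 228 in TB13, 631 in TB14 and 74.7 in Trib1. Fcer1a, another chain of the same receptor, went the other way, at 244 in TB13, 149.5 in TB14 and 482 in Trib1. The mast cell chymase gene Cma1 averaged 39.8 in TB13, 40.1 in TB14 and 104.9 in Trib1. Mcpt8 averaged 655 in TB13, 1929 in TB14 and 1759 in Trib1, and Hdc 88.0, 425.5 and 406 in the same lines. Their TB13 changes after quantile scaling were -0.98 and -1.44. Gata2 averaged 348 in TB13, 440 in TB14 and 346 in Trib1, and its TB13 change after quantile scaling was 0.72. The 4 progenitor genes with a probe set summed to 1637 to 1657 in TB13, 2316 to 2405 in TB14 and 1355 to 1375 in Trib1. Most of the sum came from Sox4, at 1175 in TB13, 1500 in TB14 and 733 in Trib1. Cd34, Meis1 and Sox4 rose in TB14 while Hoxa9 did not pass. In TB13 Sox4 and Hoxa9 rose but Cd34 (-0.55) and Meis1 (-0.39) fell as deposited. After quantile scaling Cd34 changed by 0.12 and Meis1 by -0.54 in TB13. The part of these cells in the level of Kit was not tested.

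Flt3, the receptor for Flt3 ligand, read 42.2, 41.7, 30.1 and 36.3 in TB13, 23.1, 23.3, 25.3 and 27.2 in TB14, and 30.4, 30.3, 29.4 and 24.1 in Trib1. These are near the array medians of 20.8 to 25.9, and both Bcl11a lines overlapped with Trib1. The change in TB14 was -0.14 ± 0.073 (adjusted p = 0.123). That in TB13 was 0.28 ± 0.073 as deposited (adjusted p = 0.00134) and 0.17 after quantile scaling, when it did not pass (adjusted p = 0.0707).

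**Figure D2:**
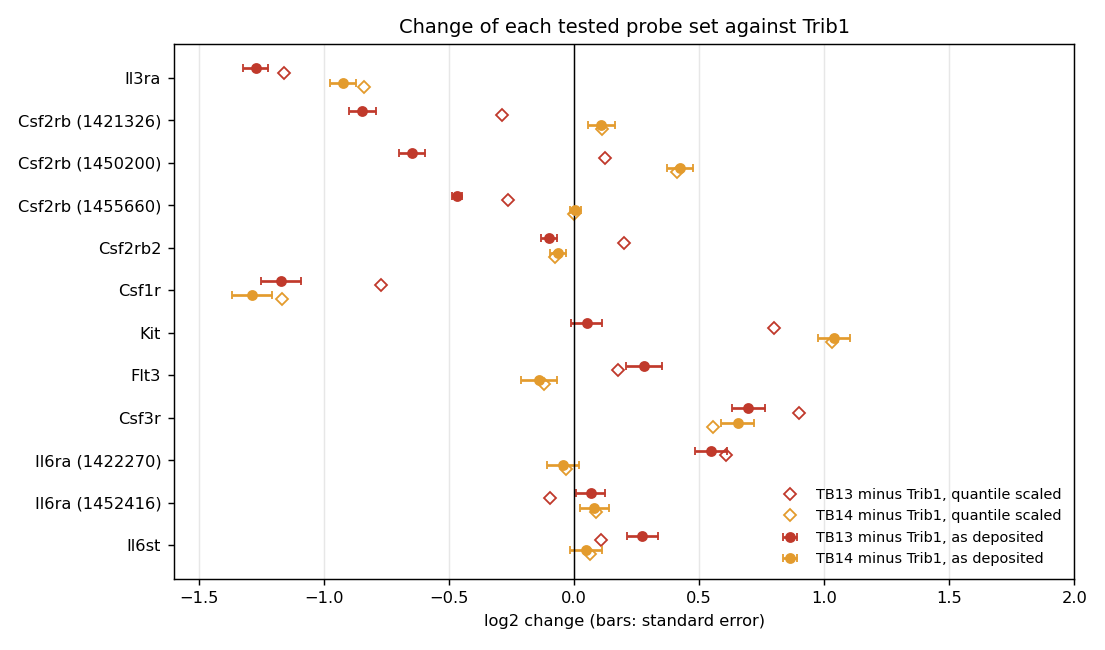
Log2 change against Trib1 of the 12 tested probe sets in TB13 and TB14, with filled points as deposited, bars for the standard error and open diamonds after quantile scaling. The TB14 diamonds stay close to their points, while in TB13 the diamond of Kit is at 0.80 and its point at 0.050, and that of Csf2rb2 at 0.20 and its point at -0.10.

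Csf3r, the G-CSF receptor, was higher in both Bcl11a lines, at low intensity. It read 58.1, 60.4, 63.5 and 66.4 in TB13, 71.0, 52.9, 56.7 and 60.4 in TB14, and 35.8, 32.9, 32.5 and 32.7 in Trib1. The Bcl11a lines overlapped with each other and lay wholly above Trib1. Csf3r rose by 0.65 ± 0.066 in TB14 (adjusted p = 7.46e-08) and by 0.70 ± 0.066 in TB13 (adjusted p = 5.85e-09), or by 0.56 and 0.90 after quantile scaling. The dimmest 4 controls, brighter than Csf3r at 56.0 to 99.4 units in Trib1, changed in the other direction in TB13, by -1.36 to -0.80. Array medians, however, were higher in TB13 (25.5 to 25.9) than in Trib1 (21.1 to 21.4), so the controls do not stand for dim probe sets in general. The pseudocount of 12.7 added before taking logs is not small beside these values. It makes these changes smaller than the ratios of the means, 1.80 in TB14 and 1.85 in TB13.

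The window of Csf3r is shown because its probe set rose in both lines and the gene is a known PU.1 and C/EBPalpha target. It lies at chr4:126024409-126024708 (+ strand, GRCm38.p6, from RefSeq), with GAGGAA in capitals.
Csf3r: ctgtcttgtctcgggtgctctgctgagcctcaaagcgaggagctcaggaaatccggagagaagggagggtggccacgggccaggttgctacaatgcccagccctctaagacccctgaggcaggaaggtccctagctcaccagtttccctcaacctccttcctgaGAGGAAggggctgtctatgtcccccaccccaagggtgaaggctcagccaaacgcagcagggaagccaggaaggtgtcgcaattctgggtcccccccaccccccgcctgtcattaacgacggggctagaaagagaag
GAGGAA occurred once, beginning at base 165, and GGAAGT was not in this window. The motif in capitals in each printed window is one that it held. Across the receptor genes 9 windows of 8 genes could be searched, with 2 overlapping windows for Kit and none for Csf1r and Csf2rb. GGAAGT was present in 4 of the 9 against 23.8% of all windows, and GAGGAA in 6 against 28.3%. TGNGGT, a RUNX core, was in 4 against 45.8% of all windows, TGACCA, the motif known for BCL11A, in 1 against 13.6%, and TTCNNNGAA, a STAT motif, in 1 against 8.3%, all on both strands. No match says only that these letters are not in the window.

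Neutrophil lineage genes differed between the lines in which Csf3r was raised. The summed level of their 8 markers was 5550 to 5597 in TB13, 12490 to 12610 in TB14 and 6225 to 6417 in Trib1. In TB14 7 rose and 1 fell, where 29.6% of all probe sets rose and 20% fell. Those that rose included S100a8, which averaged 24.5 in TB13, 1570 in TB14 and 47.7 in Trib1. Elane, neutrophil elastase, also rose and averaged 109 in TB13, 436 in TB14 and 55.6 in Trib1. In TB13 1 rose, 5 fell and 2 did not pass as deposited, where 26% of all probe sets rose and 64.4% fell. After quantile scaling 2 rose and 4 fell, where 37% rose and 43.1% fell. The part of such cells in the level of Csf3r was not tested.

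The interleukin-6 receptor chains were dim. Il6ra, the chain that binds interleukin-6, read 49.8, 42.8, 58.1 and 53.3 in TB13 on its brighter probe set, 30.3, 27.0, 30.7 and 29.8 in TB14, and 30.1, 29.6, 30.5 and 32.8 in Trib1. Only TB13 stood clear of Trib1, with a rise of 0.55 ± 0.063 as deposited (adjusted p = 1.00e-07) and 0.61 after quantile scaling, and the TB14 change was -0.045 (adjusted p = 0.605). The second probe set of Il6ra did not pass in TB13 as deposited or after quantile scaling (-0.095 there, adjusted p = 0.146). It averaged 28.7 ± 3.59 in TB13, 29.0 ± 1.84 in TB14 and 26.7 ± 1.27 in Trib1, with changes of 0.066 in TB13 (adjusted p = 0.278) and 0.081 in TB14 (adjusted p = 0.269). In TB13 it was -0.20 after cyclic loess scaling (adjusted p = 0.00352) and 1.27 after calibration on the controls (adjusted p = 2.36e-20), so its direction rested on the scaling. Il6st, the signalling chain gp130, read 34.3, 22.4, 28.1 and 28.7 in TB13, 22.6, 22.1, 22.7 and 21.6 in TB14, and 21.5, 21.3, 19.5 and 22.3 in Trib1 on its brightest probe set, and TB14 overlapped with Trib1. Its change was 0.27 in TB13 as deposited (adjusted p = 0.000494) and 0.11 after quantile scaling (adjusted p = 0.152), and 0.046 in TB14 (adjusted p = 0.592). The other 2 Il6st probe sets were below the array median on all 12 arrays, at 12.9 to 19.0 and 7.39 to 10.2, and were not tested. Calibration on the controls gave TB13 changes of 1.83 for Csf3r, 1.70 for the brighter Il6ra probe set, 1.47 for Il6st and 1.46 for Flt3, all of which passed. On the Trib1 arrays these genes read below the dimmest control, so there the correction was held at its value at the end of the controls' range.

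Counted over probe sets, 5 of the 12 tested passed in TB14 against Trib1, 3 higher and 2 lower, where 49.5% of all 17475 tested probe sets passed, 29.6% higher and 20% lower. The share of the receptor probe sets lay near that background. The median change of the 12 was 0.026, beside 0.0084 over all. After quantile scaling 6 passed, 3 higher and 3 lower, where 44% of all did, 25.1% higher and 19% lower. On the log2 scale with its pseudocount, which shrinks changes, Kit and Csf1r changed 2-fold or more, 1 higher and 1 lower (Il3ra, with a ratio of means of 0.477, did not reach it on that scale), where 2.5% of all probe sets did, and 0.996% of all probe sets were that much higher and 1.51% that much lower. With quantile scaling as well, the counts were again 1 and 1, where 0.813% were higher and 1.36% lower. In TB13 10 of the 12 passed, 4 higher and 6 lower as deposited, where 90.4% passed, 26% higher and 64.4% lower. The median change of the 12 was -0.025, beside -0.39 over all. After quantile scaling 9 passed in TB13, 5 higher and 4 lower, where 80% passed, 37% higher and 43.1% lower. Changes of 2-fold or more in TB13 were 2, both lower (Il3ra and Csf1r), where 16% of all probe sets changed that much, 0.773% higher and 15.3% lower. With quantile scaling as well 1 remained past that size, Il3ra, where 4.22% of all were higher and 4.85% lower. Both comparisons share the Trib1 arrays.

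Set directly against each other, the lines TB14 and TB13 differed in 8 of the 12 probe sets as deposited, 5 higher and 3 lower in TB14, where 91.2% of all passed, 65.2% higher and 26% lower. After quantile scaling 11 passed, 6 higher and 5 lower, where 80.8% of all did, 44.9% higher and 35.9% lower. On the same log2 scale a change of 2-fold or more was seen in 1 probe set, the dimmest of Csf2rb, which was higher in TB14 (Kit, with a ratio of means of 2.02, came just short at 0.99), where 18.1% of all changed that much, 17.2% higher and 0.91% lower. With quantile scaling as well there was none, where 4.85% of all were higher and 4.38% lower. Kit was higher in TB14 than in TB13 by 0.99 ± 0.063 (adjusted p = 1.28e-11) and by 0.23 after quantile scaling (adjusted p = 0.0014). For the brighter Il6ra probe set the difference was -0.59 as deposited and -0.64 after quantile scaling, lower in TB14 both times. The second Il6ra probe set did not share this. It differed by 0.015 as deposited (adjusted p = 0.81) and by 0.18, higher in TB14, after quantile scaling (adjusted p = 0.00965). For Il3ra the difference was 0.35 as deposited (adjusted p = 2.57e-06), -0.038 after cyclic loess scaling and -0.89 after calibration on the controls, so the order of the Bcl11a lines for Il3ra rested on the scaling. Csf1r and Csf3r did not pass between the lines as deposited (-0.12 and -0.041, adjusted p = 0.182 and 0.557), but both were lower in TB14 after quantile scaling (-0.40 and -0.34, adjusted p = 0.00113 and 0.000436).

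**Figure D3:**
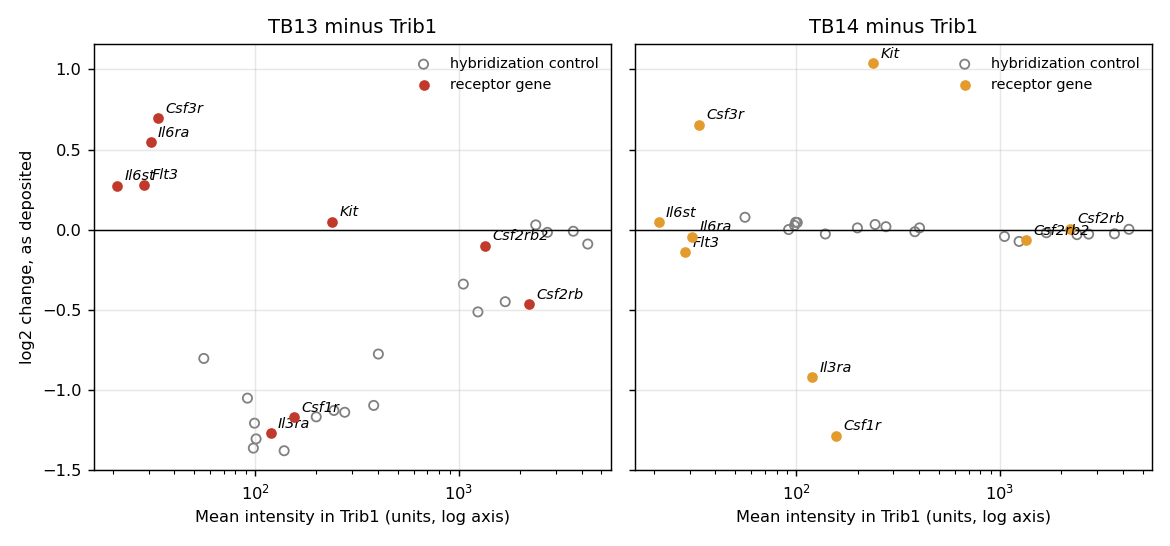
Log2 change as deposited against the mean Trib1 intensity (log axis), for the 18 hybridization controls (open circles) and the brightest probe set of each receptor gene (filled), in TB13 (left) and TB14 (right). In TB13 Il3ra at -1.27 and Csf1r at -1.17 lie among the controls and Kit at 0.050 lies above them, while in TB14 the controls lie between -0.074 and 0.077 and Il3ra, Csf1r, Kit, Csf3r and Flt3 (-0.14, not called) lie outside that band.

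The place of a probe set among all 45141 on its own array does not depend on the scaling factor of the array. Il3ra stood at percentiles 63.0 to 66.4 on the TB13 arrays, 68.0 to 68.4 on those of TB14 and 76.1 to 77.0 on those of Trib1. Csf1r stood at 70.0 to 73.7 in TB13, 67.7 to 68.4 in TB14 and 77.9 to 81.4 in Trib1, and Kit at 89.6 to 91.6, 91.5 to 92.0 and 83.8 to 85.1 in the same lines. Kit was thus placed higher in both Bcl11a lines than in Trib1 by this measure, and the TB13 and TB14 ranges met. Csf3r was at 71.0 to 73.6 in TB13, 67.4 to 70.6 in TB14 and 60.4 to 62.1 in Trib1. Csf2rb and Csf2rb2 stayed at 97.2 or above in all lines on their brightest probe sets. A rank still depends on how the rest of the array responded, which differed in TB13.

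**Figure D4:**
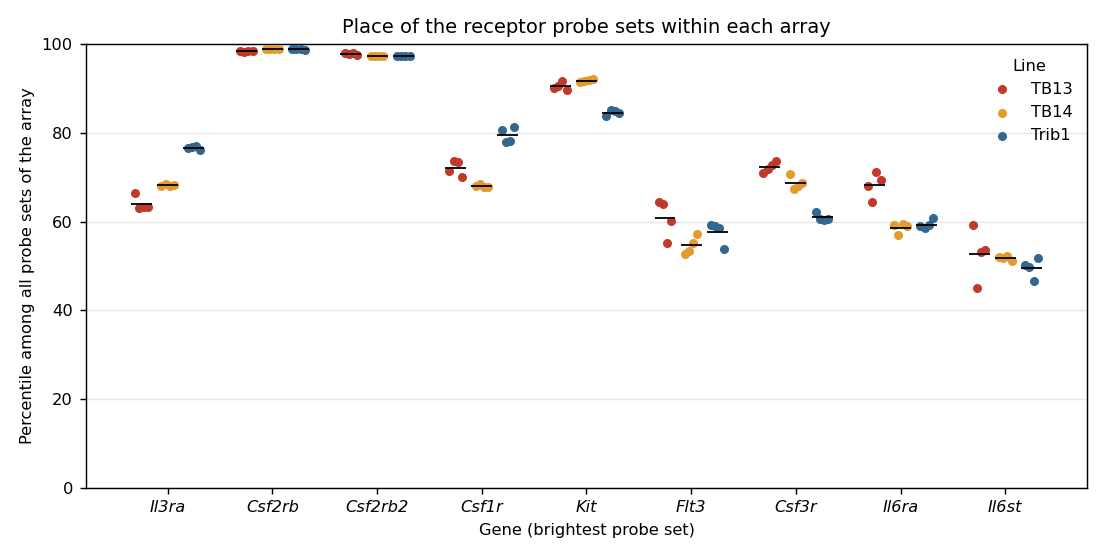
Percentile of each gene's brightest probe set among all probe sets of its array (axis from 0 to 100), with each point an array and each bar the mean of a line. Il3ra and Csf1r take lower places in TB13 and TB14 than in Trib1, and Kit and Csf3r take higher ones.

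Genes whose pair of changes in TB13 and TB14 was nearest to that of a receptor gene were sought among 10639 other genes, as deposited, for the 3 receptor genes with a 2-fold change on the log2 scale in either line. The nearest to Il3ra were Spns2, a lipid transporter, at -1.28 in TB13 and -0.94 in TB14 (a distance of 0.018 on the log2 scale), the chemokine receptor gene Ccr1 at -1.22 and -0.92, and Irgm2, an interferon-inducible GTPase, at -1.21 and -0.95. The nearest to Csf1r were Stag3 at -1.17 and -1.31, Prickle1 at -1.13 and -1.32, and Ctsw, the protease cathepsin W, at -1.12 and -1.26, of which Stag3 and Prickle1 read under 19 units in both Bcl11a lines. The nearest to Kit were Afp at 0.11 and 1.05, Klhl23 at 0.11 and 1.01, and Ptk7 at 0.079 and 0.97. Likeness over 2 changes that share the Trib1 arrays is a description of these arrays.

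Ligands of these receptors were mostly dim. Of 9 ligand genes 6 were tested, and Il3, Csf2 and Il5 were below the filter, with line means of 9.64 to 17.0. In TB14 4 of the 6 fell and none rose (median change -0.25), where 20% of all probe sets fell. Il6, which encodes interleukin-6, was well above the array medians. It averaged 477 ± 26.4 in TB13, 594 ± 4.99 in TB14 and 780.5 ± 8.53 in Trib1, changes of -0.70 in TB13 and -0.39 in TB14 (adjusted p = 8.32e-09 in TB14), and the TB13 change after quantile scaling was -0.10. Flt3l, the Flt3 ligand, averaged 100.2 ± 9.91 in TB13, 168 ± 3.32 in TB14 and 231 ± 9.94 in Trib1, and fell by 0.43 in TB14. Csf3, which encodes G-CSF, was dim, with line means of 17.2 to 30.5. It changed by 0.39 in TB13, or 0.23 there after quantile scaling, and by -0.14 in TB14. Kitl, the Kit ligand, was also dim at 21.5 to 33.9. It changed by 0.44 in TB13, or 0.29 there after quantile scaling, and by -0.0054 in TB14, where it did not pass (adjusted p = 0.947).

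Other receptors of the same families gave 3 rises and 6 falls in TB14 among 21 tested, with a median of -0.064, where 29.6% of all probe sets rose and 20% fell. In TB13 there were 8 rises and 12 falls as deposited, where 26% rose and 64.4% fell, or 9 and 9 after quantile scaling, where 37% rose and 43.1% fell. Il4ra, the interleukin-4 receptor alpha chain, averaged 86.9 ± 6.27 in TB13, 106 ± 3.36 in TB14 and 209 ± 4.88 in Trib1, a fall of 0.90 in TB14 (adjusted p = 1.33e-11). Ifnar2, a chain of the type I interferon receptor, fell by 0.69 in TB14, at 540 ± 33.3 in TB13, 689 ± 17.6 in TB14 and 1117 ± 13.5 in Trib1. Ifngr2, a chain of the interferon gamma receptor, changed by -0.091 in TB14 (adjusted p = 0.246) and by -1.39 in TB13, or -0.73 there after quantile scaling. Flt1, a VEGF receptor, was 0.97 higher in TB13, or 1.43 after quantile scaling, and averaged 95.5 ± 6.83 in TB13, 36.1 ± 3.83 in TB14 and 42.6 ± 2.25 in Trib1.

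Signalling proteins that act at these receptors gave 3 rises and 8 falls in TB14 among 15 tested (median -0.099), where 29.6% of all probe sets rose and 20% fell. Fes, a cytoplasmic tyrosine kinase of myeloid cells, fell by 0.77 in TB14, at 324 ± 27.5 in TB13, 349 ± 7.80 in TB14 and 606 ± 17.4 in Trib1. Pik3r1, a regulatory subunit of PI3-kinase, changed by -1.30 in TB13, or -0.53 there after quantile scaling, and by -0.38 in TB14. Jak1, a kinase bound to gp130, averaged 200.9 ± 8.32 in TB13, 478 ± 7.22 in TB14 and 513.5 ± 12.04 in Trib1, with changes of -1.30 in TB13, or -0.55 there after quantile scaling, and -0.099 in TB14 (adjusted p = 0.0241). In TB13 12 of the 15 fell and 2 rose as deposited, where 64.4% of all probe sets fell and 26% rose, but 5 fell and 6 rose after quantile scaling, where 43.1% fell and 37% rose. Syk, a kinase of immune receptors, averaged 25.3 ± 3.15 in TB13, 77.4 ± 2.46 in TB14 and 82.0 ± 3.12 in Trib1, with -1.35 in TB13 after quantile scaling and -0.072 in TB14 (adjusted p = 0.345).

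Of 20 genes listed as negative regulators of the receptors, 13 were lower and 3 higher in TB14 (median -0.22). Over all probe sets 20% fell there and 29.6% rose. The list includes Ptpn11, Ptprc and Usp8, and whether each listed gene restrains these receptors in these cells was not tested. In TB13 19 fell and 1 rose as deposited, where 64.4% of all probe sets fell and 26% rose. After quantile scaling 15 fell and 3 rose, where 43.1% of all fell and 37% rose. Socs3, an inhibitor that binds gp130 and the G-CSF receptor, averaged 51.7 ± 6.71 in TB13, 40.5 ± 1.58 in TB14 and 144 ± 7.20 in Trib1. Its change was -1.56 in TB14 (adjusted p = 1.42e-13) and -1.29 in TB13, or -1.02 there after quantile scaling. Sla, an adaptor known to lower receptor levels, fell by 1.197 in TB14, at 651 ± 32.5 in TB13, 604 ± 12.8 in TB14 and 1401 ± 30.8 in Trib1. Dok3, an inhibitory adaptor, fell by 1.02 in TB14, at 44.7 ± 6.71 in TB13, 62.3 ± 1.95 in TB14 and 139 ± 11.0 in Trib1. Sh2b3, which restrains JAK2 signalling, changed by -0.25 in TB14 and by -1.16 in TB13, or by -0.9978 in TB13 after quantile scaling.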

How the data were processed

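Biotin-labelled cRNA from 100 ng of total RNA was hybridized, and the authors made linear intensities with MAS5, per the submitters' processing notes. Their scaling target and genome build are not given in these sources. All 45141 probe sets were used with their deposited intensities. Names came from the platform annotation, with 28898 probe sets of 1 gene, 551 of several and 15588 of none, besides 104 controls. No symbol changed through the RefSeq table.

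Values were taken to log2(value + 12.7), 12.7 being the 25th percentile of all values, so changes of dim genes are understated. In R 4.3.3, limma 3.58.1 fitted all 12 arrays with 3 groups and a variance trend over 17475 probe sets, with Benjamini-Hochberg adjustment and a threshold of 0.05, two-sided. The median SD within a line was 0.073 (log2), and arrays of a line correlated at 0.9953 or above. A gene's brightest probe set stood for it where 1 value is given. Calibration fitted the mean of the 18 hybridization controls as a quadratic curve of each array, with the correction held constant outside their range.

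Members and lists were chosen with earlier results of these data known. Named genes were all receptor genes, the 4 largest called changes of each list, and the 3 genes nearest in pattern. Marker genes beyond that rule, and the controls set beside each gene, were named after their values were seen. Same-numbered arrays did not deviate together (correlations of -0.095 to 0.13 across probe sets), so the numbers do not pair them. Alternatives covered scaling, pseudocount, filter, variance model, probe set choice, threshold, replicate block and leaving out each array. Quantile scaling with a 2-fold threshold was added after the data were seen. The code was tested on simulated data. Figures used matplotlib 3.10.9.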

Additional observations from a re-analysis of the deposited data

Results flagged for a closer look

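Of 42 sets of 4 arrays (14 probe sets in 3 lines), 5 held an array far from the other 3, where chance alone gives about 1 in 20. The Il3ra value of 46.3 in TB13 replicate 1 stood above 40.2 to 40.8. The Flt3 value of 24.1 in Trib1 replicate 4 stood below 29.4 to 30.4, and the Csf3r value of 35.8 in Trib1 replicate 1 above 32.5 to 32.9. Of the untested Il6st probe sets, TB13 replicate 1 read 19.0 above 17.4 to 17.6, and TB14 replicate 4 read 7.39 below 8.10 to 8.14.

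The change against Trib1 differed between the Bcl11a lines by limma in 6 genes, given as TB14 minus TB13: Il3ra by 0.35 (adjusted p = 2.57e-06), Csf2rb by 0.47 (adjusted p = 3.71e-14), Kit by 0.99 (adjusted p = 1.28e-11), Flt3 by -0.42 (adjusted p = 2.11e-05), Il6ra by -0.59 (adjusted p = 3.06e-08) and Il6st by -0.23 (adjusted p = 0.00243). The Il6st difference did not pass after quantile (adjusted p = 0.53), median (adjusted p = 0.612) or cyclic loess scaling (adjusted p = 0.409), nor that of Flt3 after cyclic loess (adjusted p = 0.0607). The Il3ra difference was -0.89 after calibration on the controls. These values are those of the brightest probe sets, and the second Il6ra probe set did not differ as deposited (0.015, adjusted p = 0.81). Of all probe sets 91.2% differed, and the hybridization controls differed by a median of 0.97.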

How the results depend on the processing

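With all 17475 probe sets the counts higher and lower were 4542 and 11262 in TB13, 5169 and 3487 in TB14, and 11385 and 4550 in TB14 against TB13. Leaving out each array gave 4156 to 4467 and 11053 to 11241, 4610 to 5516 and 3062 to 3762, and 11173 to 11392 and 4170 to 4484 in the same order. No array moved a count of receptor probe sets by over 1.5 times. The replicate numbers are shared by the lines but do not pair arrays. With the replicate block the receptor counts were 4 and 6, 3 and 2, and 5 and 3, as without it, and those over all were 4537 and 11255, 5112 and 3443, and 11383 and 4536. The block changed no call of a receptor gene's brightest probe set.

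In TB13 the receptor counts, 4 higher and 6 lower, became 2 higher with median scaling, 8 and 2 with calibration on controls, 1 higher with the stricter filter, which tested 8, 0 and 2 at 2-fold or more, and 0 and 1 at 2-fold with quantile scaling. In TB14, 3 and 2, lower calls became 4 with array weights and 4 with only the 8 arrays compared, and 2-fold calls were 1 and 1, also with quantile scaling. In TB14 against TB13, 5 and 3, lower calls were 5 with quantile scaling, 8 with calibration, 5 without a filter and 0 with the stricter one. Higher calls there were 8 with median scaling and 3 with 1 probe set per gene. At 2-fold they were 1 and 0, and with quantile scaling 0 and 0.

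Over all probe sets in TB13, cyclic loess scaling gave 7424 lower, calibration 13088 higher and 1900 lower, no filter 12230 higher, the stricter filter 1618 higher, and 1 probe set per gene 7135 lower. At 2-fold there were 135 and 2669, and 737 and 847 with quantile scaling. In TB14, 1 probe set per gene gave 3034 higher, and 2-fold 174 and 263, or 142 and 238 with quantile scaling. In TB14 against TB13, median scaling gave 3001 lower, cyclic loess 7465 higher, calibration 2371 and 12493, no filter 12326 lower, the stricter filter 1653 lower, 1 probe set per gene 7118 higher, and 2-fold 3005 and 159, or 848 and 766 with quantile scaling.

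Changes of sign were as follows. Csf2rb2 in TB13 was 0.20 with quantile scaling, 0.30 with cyclic loess and 0.33 with calibration, and in TB14 against TB13 -0.28, -0.40 and -0.37. Kit in TB13 was -0.20 with median scaling. Il3ra in TB14 against TB13 was -0.038 with cyclic loess and -0.89 with calibration. With median scaling that contrast gave 0.12 for Csf1r and 0.20 for Csf3r, and with cyclic loess 0.059 for Il6st. Uncalled TB14 values turned to -0.00030 and -0.020 for Csf2rb (quantile, cyclic loess) and -0.015 for Il6st (calibration). Leaving out 1 array gave ranges across 0, all uncalled, of -0.024 to 0.11 for Kit in TB13 (below 0 without TB13 replicate 3), -0.011 to 0.015 for Csf2rb in TB14, and in TB14 against TB13 -0.0051 to 0.063 for Csf2rb2 and -0.11 to 0.0082 for Csf3r. Flt3 in TB14 passed without Trib1 replicate 4 (-0.19, adjusted p = 0.0382), and Csf2rb2 in TB14 passed without TB13 replicate 4 (-0.065, adjusted p = 0.0111). Both also passed as lower in TB14 with array weights (adjusted p = 0.00326 for Flt3 and 0.00155 for Csf2rb2). With only the 8 arrays compared they passed too (adjusted p = 0.0189 and 6.62e-04). Flt3 passed there with calibration (-0.20, adjusted p = 0.0425), and Csf2rb2 with cyclic loess (-0.0998, adjusted p = 0.00488). The falls of Il3ra and Csf1r and the rises of Kit and Csf3r in TB14 kept direction and an adjusted p under 0.05 under every alternative run that tested them, but with the added demand of a 2-fold change on the log2 scale Il3ra and Csf3r lost their calls. Apart from the scalings, which change the values themselves, and the filters, which change how many probe sets are tested, causes were not tested. Signal near the array medians limits Flt3, Il6ra and Il6st, and array medians as deposited were higher in TB13 than in Trib1.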
